A study of Mus musculus with 2 samples.

Results

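The genes described here are 8 genes that mark or drive the epithelial to mesenchymal transition, out of 16444 named genes on a mouse oligonucleotide array. They were picked by their symbol in the probe annotation: Snai1, Snai2, Twist1, Zeb2, Cdh1, Cdh2, Vim and Tacstd1, the older name of Epcam. The symbol itself was found for 7 of them. Zeb2 was listed only as Zfhx1b, a name that the RefSeq gene table of GRCm38.p6 gives as a synonym of Zeb2, and its probe was taken by that name. Each gene had 1 probe, so the choice of the brightest probe left nothing to decide.

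RNA came from early mesodermal cells made from mouse embryonic stem cells on OP9 stroma, a bone marrow stromal line, and sorted for Flk-1, the surface receptor encoded by Kdr. The gene-trapped group carries a disruption of AU019823 on both alleles, and the revertant group has a genotype that the labels call nearly wild type. Each group is 1 array of 1 sample, from 300000 gene-trapped and 350000 revertant cells at day 4.5, although the treatment protocol states a coculture of 4 days. The labels give the samples different codes that they do not explain, and whether the codes are clones is not stated. With no replicate, every difference below compares these 2 samples only, and no test, standard error or p-value is given.

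In the epithelial to mesenchymal transition, cells of a sheet lose their junctions and polarity and become migratory. During gastrulation, epiblast cells pass through it in the primitive streak to form mesoderm. The zinc finger proteins Snai1, Snai2 and Zeb2 and the helix-loop-helix protein Twist1 are transcription factors that drive it. Snail and Zeb proteins repress Cdh1 (E-cadherin) and other epithelial genes by binding E-boxes with the letters CACCTG. Cdh2 (N-cadherin) and Vim, an intermediate filament protein, are kept or gained in mesenchymal cells. Epcam is a surface adhesion protein of epithelia and embryonic stem cells.

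Upstream windows were searched for 5 of the 8 genes, and those of Snai2, Cdh1 and Cdh2 were not analysed here. Of the 5, Snai1 and Epcam hold that E-box, and they are shown because human SNAI1 is known to bind its own promoter and human ZEB1 to repress EPCAM. Each window is the 250 bases before the gene's start in the RefSeq promoter table (GRCm38.p6), at chr2:167537945-167538194 on the plus strand for Snai1 and at chr17:87635729-87635978 on the plus strand for Epcam. Capitals mark CACCTG or CAGGTG, which is the same site read from the other strand.
Snai1: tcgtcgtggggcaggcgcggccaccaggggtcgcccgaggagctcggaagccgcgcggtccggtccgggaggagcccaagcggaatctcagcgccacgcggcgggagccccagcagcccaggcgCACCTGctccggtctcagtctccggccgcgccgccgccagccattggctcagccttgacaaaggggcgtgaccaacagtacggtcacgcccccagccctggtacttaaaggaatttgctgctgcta
Epcam: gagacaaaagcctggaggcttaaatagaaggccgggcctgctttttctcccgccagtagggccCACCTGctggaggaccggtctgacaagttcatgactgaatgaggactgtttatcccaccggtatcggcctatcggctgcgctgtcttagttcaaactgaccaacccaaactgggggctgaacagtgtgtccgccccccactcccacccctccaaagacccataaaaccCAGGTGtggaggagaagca
The box of Snai1 begins 126 bases before the gene's start, and those of Epcam begin 187 and 19 bases before it. Of all 32851 promoter windows of this length in the table, 17.2% hold at least 1 such box and 2.06% at least 2. The windows of Twist1 and Vim and all those of Zeb2 lack these letters, which says nothing about binding there or elsewhere.

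Array signals are linear intensities of a spot. A probe counted as above background where its signal exceeded the mean of the 2736 blank spots by more than 2 SD, which put the limit at 22.26 on the gene-trapped and 24.99 on the revertant array. The median probe signal was 38.6 on the gene-trapped and 47.5 on the revertant array, so a raw signal that was somewhat lower in gene-trapped cells is common to most probes. Differences are therefore given after normalization, as log2 of the gene-trapped minus log2 of the revertant signal. An offset of 50 was added before the logarithm, which shrinks the difference of a dim gene below its signal ratio. The SD of the log2 ratio between arrays over 24 spots of a positive control was at most 0.108, a spread between spots and not between cultures. Over 13753 genes above background on both arrays the median difference was 0.01, and the central 90% lay between -0.47 and 0.43. The disrupted gene AU019823 had signals of 297 in gene-trapped and 486 in revertant cells, a log2 difference of -0.39, and where its probe lies relative to the trap is not known. Kdr had 537 in gene-trapped and 1025 in revertant cells, a log2 difference of -0.65. The local background at Kdr was 453 on the gene-trapped and 493 on the revertant array, and with it subtracted the difference was -2.04.

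The 8 genes did not share a direction. All 8 were above background on both arrays, 1 (Snai2) was lower by at least 2-fold and 0 were at least 2-fold higher. Among all genes above background, 1.08% were at least 2-fold lower and 0.342% at least 2-fold higher. The median of the 8 log2 differences was -0.04, against 0.01 for all genes, and 6 of the 8 lay inside the central 90% of all genes. The 2 outside it were the Snail family members Snai1 and Snai2, on opposite sides. In bulk RNA, fewer cells with a transcript and less of it per cell cannot be told apart.

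**Figure D1:**
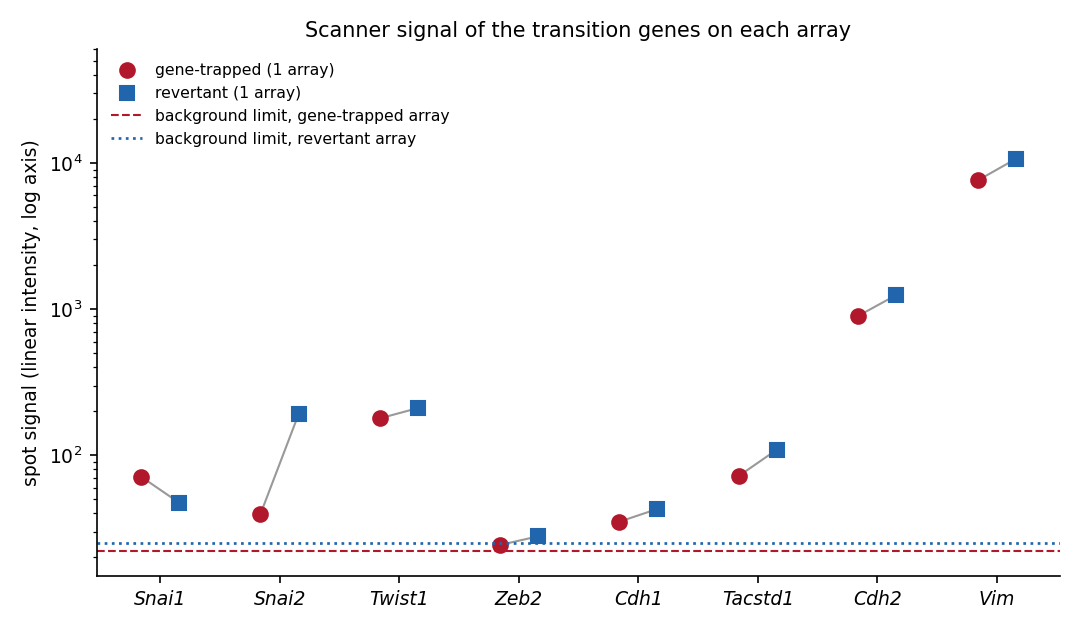
Scanner signal (linear intensity on a log axis) of each gene on the gene-trapped array (circles) and the revertant array (squares), 1 array each, with the background limit of each array as a horizontal line. Snai1 is the 1 gene of the 8 with the higher raw signal on the gene-trapped array, and Zeb2 lies close to both limits. Heights of different genes are signals of different probes and are not comparable.

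Snai1 was the gene with the highest difference of the 8. Its signal was 71.5 in gene-trapped cells and 47.3 in revertant cells, the reverse of the direction of the raw signals of the other 7. The signal was 3.21 times the background limit on the gene-trapped array but only 1.89 times that on the revertant array. After normalization the log2 signal was 6.82 in gene-trapped and 6.22 in revertant cells, a difference of 0.61 or 1.52-fold. Of the 13753 genes, 277 had a difference as high or higher, itself included. Snai1 encodes the Snail repressor, which mouse embryos need to form mesoderm cells that leave the streak. The size of its difference depended on how background was treated: it was 0.15 with the scanner's local background subtracted and 0.97 with an offset of 16. In the authors' deposited table its intensity was 43.8 in gene-trapped and 16.3 in revertant cells, 2.68-fold higher, in a table where 2.01% of 14203 genes were at least 2-fold higher.

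Snai2, the gene of the related repressor Slug, went the other way by a larger amount. Its signal was 39.6 in gene-trapped cells, 1.78 times the background limit of that array, against 192 in revertant cells, 7.69 times the limit there. The log2 signal was 6.24 in gene-trapped and 7.66 in revertant cells, so Snai2 was 2.67-fold lower (difference -1.42). Only 48 of the 13753 genes, itself included, had a difference as low or lower. Mice without Snai2 survive, unlike those without Snai1, although the proteins share their E-box.

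The gap between the Snail genes, taken as the difference of Snai1 less that of Snai2, was 2.02 on the log2 scale. It shows unequal change of the 2 probes and not which transcript was the more abundant. The authors' deposited table gave Snai2 intensities of 16.7 in gene-trapped and 112 in revertant cells, 6.70-fold lower, where 4.02% of genes were at least 2-fold lower. The local background beside the Snai2 spot was itself 28.6 on the gene-trapped and 135 on the revertant array. With it subtracted the difference of Snai2 was -0.55, no longer 2-fold. In that setting 1.34% of all genes were at least 2-fold lower.

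Markers of stromal cells were set beside Snai2, since fibroblasts also express it. The OP9 stromal and fibroblast markers numbered 19 with a probe, of which 18 were above background on both arrays. The summed signal of the 19 was 1836 in gene-trapped and 2425 in revertant cells. Csf1 alone gave 656 of the gene-trapped and 686 of the revertant sum. Of the 18, 9 had a difference below 0 and 9 above, with a median of -0.02. Col1a1 had signals of 74.5 in gene-trapped and 328 in revertant cells (difference -1.49), and Col3a1 had 47.0 in gene-trapped and 129 in revertant cells (-0.79). By contrast Mgp, a matrix protein gene of cartilage and vessels, had 0.75 and Bgn, a matrix proteoglycan gene, 0.55. With the local background subtracted Col1a1 was at -1.26, Col3a1 at -0.11, Mgp at 0.13 and Bgn at 0.37. Dcn was not above background on both arrays, and Fap (27.2 in gene-trapped and 31.4 in revertant cells) and Lum (32.1 in gene-trapped and 35.8 in revertant cells) were near the limit. Other members were well above it. Pdgfrb had 146 in gene-trapped and 247 in revertant cells (difference -0.34), and Col1a2 had 89.25 in gene-trapped and 164 in revertant cells (-0.41). Bgn had 247 in gene-trapped and 204 in revertant cells. Whether stromal RNA had a part in the Snai2 result was not tested.

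Neural crest cells are another population that uses Snai2 and Twist1. Of 8 neural crest markers with a probe, 7 were above background on both arrays, with summed signals of 851 over the 8 in gene-trapped and 935 in revertant cells. Sox10 had 43.6 in gene-trapped and 53.6 in revertant cells, and Tcfap2a 23.9 in gene-trapped and 27.2 in revertant cells. Msx1, which mesoderm also expresses, had 660.0 in gene-trapped and 713 in revertant cells (difference 0.13). Erbb3 and Tcfap2b had 0.03 each and Pax3 0.02, and the list ran from -0.02 to 0.13 with a median of 0.02.

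Twist1, a factor of mesoderm and cranial mesenchyme, differed little between the arrays. Its signal was 179 in gene-trapped and 211 in revertant cells, with a log2 signal after normalization of 7.88 in gene-trapped and 7.77 in revertant cells. The difference of 0.11 was close to the spread between control spots, and 24.1% of genes lay higher. Its sign turned with the scaling, to -0.053 when arrays were set to the same median.

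Zeb2, which represses Cdh1 and also binds Smad proteins, was barely above background. Its signal was 24.3 in gene-trapped and 27.9 in revertant cells, 1.09 times the limit on the gene-trapped and 1.11 times that on the revertant array. The log2 signals of 5.85 in gene-trapped and 5.84 in revertant cells gave a difference of 0.00. A signal this near the blank level leaves little room to show any difference, so none was detectable.

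**Figure D2:**
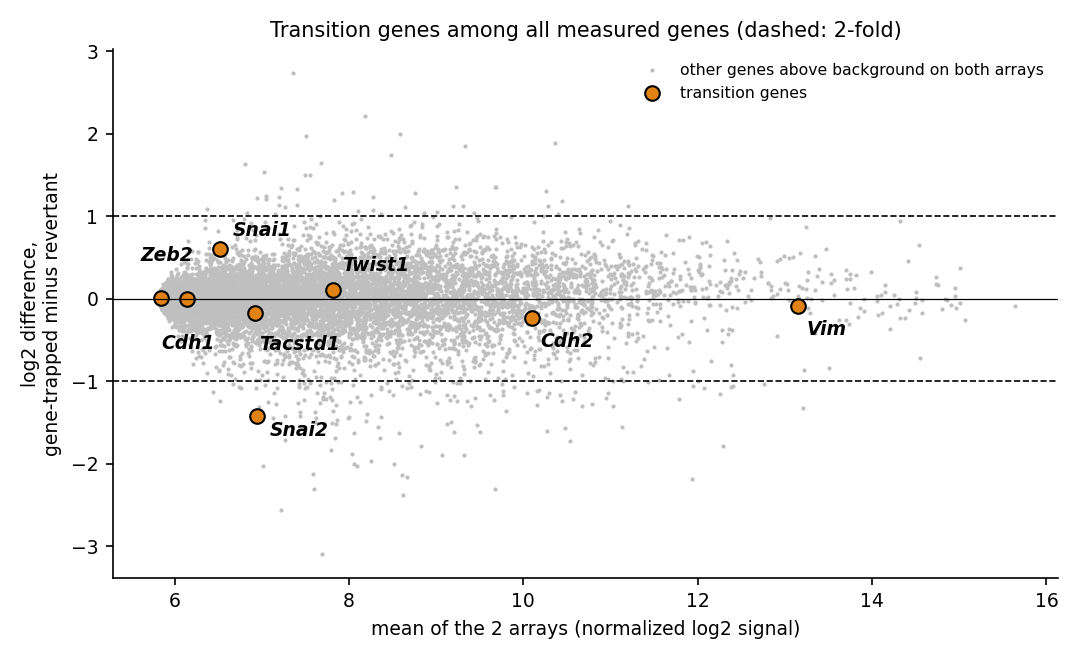
Log2 difference (gene-trapped minus revertant) against the mean normalized log2 signal of the 2 arrays, for the 13753 genes above background on both (grey) and the 8 transition genes (orange). Snai2, at -1.42, is the 1 transition gene past the dashed 2-fold line, Snai1 lies at 0.61, and the other 6 sit in the body of the cloud.

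The epithelial genes of the 8 did not share the opposed pattern of the Snail genes. Cdh1, the adherens junction cadherin of epithelia and a known Snail target, had signals of 35.1 in gene-trapped and 42.9 in revertant cells. These are 1.58 times the background limit on the gene-trapped and 1.72 times that on the revertant array. The log2 signal was 6.14 in both and the difference -0.00, in the middle of all genes, of which 45.6% lay lower. Tacstd1 had signals of 72.1 in gene-trapped and 109 in revertant cells. Its normalized difference was -0.17, or 1.13-fold lower, with 16.2% of genes below it, and it stayed negative in every setting tried. In the authors' deposited table Tacstd1 was 1.29-fold lower, at 44.4 in gene-trapped and 57.1 in revertant cells.

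Both mesenchymal genes were bright and slightly lower in gene-trapped cells. Cdh2, the cadherin that replaces Cdh1 in cells leaving the streak, had 898 in gene-trapped and 1251 in revertant cells. Its log2 signals were 9.99 in gene-trapped and 10.22 in revertant cells, a difference of -0.23 (1.18-fold lower), and 12.6% of genes lay lower. The difference of Cdh2 less that of Cdh1 was -0.23 as well, since Cdh1 lay at 0. Vim had 7596 in gene-trapped and 10680.3 in revertant cells and the smaller difference of the pair, -0.09, within the spread between control spots. Vim was -0.35 under median scaling and -0.67 with the local background subtracted, so its size, though not its sign, depended on the setting.

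**Figure D3:**
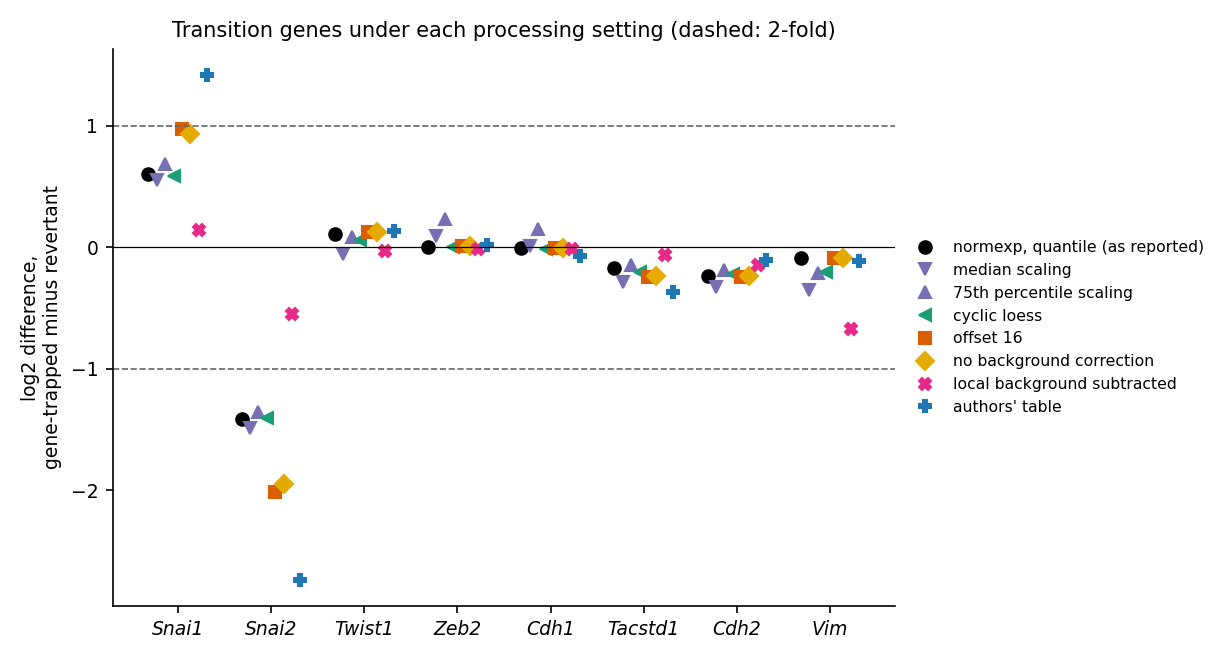
Log2 difference (gene-trapped minus revertant) of each transition gene under 8 ways of processing the arrays, 1 symbol per setting, with dashed lines at 2-fold. Snai1 stays above 0 (0.15 to 1.42) and Snai2 below 0 (-2.74 to -0.55) in all of them, but their sizes vary far more than those of Twist1, Zeb2, Cdh1, Tacstd1 and Cdh2.

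Other transcription factors of the transition were near 0. Of 14 above background on both arrays, 0 were 2-fold apart, and their median was 0.03. Hmga2, a chromatin protein that can induce Snail genes, had 0.57, and Sox9 had 0.28. Twist2, the paralog of Twist1, had signals of 99.6 in gene-trapped and 158 in revertant cells, a difference of -0.23. Zfhx1a, the older symbol of Zeb1 and paralog of Zeb2, had 146 in gene-trapped and 172 in revertant cells (difference 0.10). Snai3, the remaining Snail paralog, was near the limit at 23.4 in gene-trapped and 26.6 in revertant cells. The E-protein gene Tcf12, whose product pairs with Twist1, had 0.19.

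Among 20 genes for partners and regulators of these factors, 1 was at least 2-fold lower, 0 were higher, and the median was 0.03. That 1 was Loxl2, a lysyl oxidase family enzyme known from human cells to bind and stabilise SNAI1, with 104 in gene-trapped and 481 in revertant cells (3.08-fold lower, difference -1.62). With the local background subtracted Loxl2 was at -1.06. Its relative Loxl3 had -0.06. All 4 Id genes, whose products keep E-proteins from binding DNA, had positive differences: Id4 0.74, Id1 0.51, Id3 0.50 and Id2 0.44. With the local background subtracted Id3 was at 0.01, while Id4, Id1 and Id2 were at 0.46, 0.44 and 0.54. Lmo4, known as a cofactor of Snail proteins in chick neural crest, had -0.65, but 0.36 with the local background subtracted. Fbxl14, which in frog and human cells targets Snail proteins for degradation, had 0.19, and the Snail kinase gene Gsk3b had -0.11.

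Genes of TGF-beta signalling, a pathway that induces the transition, had a median of -0.01 over 15 members, with 0 past 2-fold. Smad4, the shared Smad, was lowest at -0.77, followed by Ltbp1, a latent TGF-beta binding protein gene, at -0.41. Tgif, a Smad corepressor gene, was highest at 0.34, and Ski had 0.25, but -0.65 with the local background subtracted. Genes of the transition in the gastrula had a median of 0.03 over 18 members, again with 0 past 2-fold. Of these, T, Mesp1 and Eomes, transcription factors of streak and early mesoderm, had 0.76, 0.51 and 0.48. Fgfr1, the receptor through which FGF signals maintain Snai1 in the mouse streak, had -0.43, but -0.07 with the local background subtracted. Epb4.1l5, which promotes loss of Cdh1 from the membrane in that process, had -0.06.

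The epithelial side was also close to 0 outside a few genes. Epithelial repressors of the transition had a median of 0.03 over 12 members with 0 past 2-fold. Klf5 had 0.40, Klf4 -0.36, the splicing factor gene Rbm35a (now Esrp1) -0.23 and Ovol2 0.22. With the local background subtracted Klf4 was at -1.57, past 2-fold, and Klf5 at 0.12. Junction and polarity genes had a median of -0.06 over 24 members, 1 at least 2-fold lower and 0 higher. Llgl2, a polarity gene that human SNAI1 can repress, had 69.1 in gene-trapped and 263 in revertant cells (2.41-fold lower, difference -1.27). The polarity gene Dlgh1 had -0.68, Pard6b -0.39 and the desmosomal gene Pkp2 -0.37. Epithelial surface and protease genes had a median of 0.07 over 11 members, 1 of them at least 2-fold higher and 0 lower. This was Perp, a desmosomal protein gene and a p53 target, at 208 in gene-trapped and 84.2 in revertant cells (2.52-fold higher, difference 1.33), but at 0.57 with the local background subtracted. The protease gene St14 had 0.44, Ap1m2 0.37 and Cd24a 0.28, against 0.001, 0.11 and 0.19 with the local background subtracted.

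Relatives and partners of the cadherins showed no 2-fold difference in either direction. Of the classical cadherins other than Cdh1 and Cdh2, 9 of 16 were above background on both arrays, with a median of 0.11. Cdh11, a mesenchymal cadherin gene, had 1070.2 in gene-trapped and 997 in revertant cells, a difference of 0.33. Cdh3 (P-cadherin) had 752 in gene-trapped and 1051 in revertant cells, a difference of -0.23, but 0.34 with the local background subtracted, where Cdh2 had -0.15. Cdh4 had 0.27 and Cdh8 0.24. Catenins and cadherin partners had a median of -0.01 over 12 members. Ctnna1, the alpha-catenin gene that links cadherins to actin, had 3431 in gene-trapped and 5539 in revertant cells (difference -0.38), and Ctnnb1, beta-catenin, had 0.26. The nectin gene Pvrl3 had -0.33, and all 3 turned sign with the local background subtracted, to 2.29, -0.16 and 0.36 in that order. There were also Cbll1 at -0.27 and Ctnnbip1 at -0.26. Intermediate filament genes other than Vim had a median of 0.01 over 13 members, with Lmnb1 at 0.45, Nes at 0.37, Des at -0.36 and Lmnb2 at 0.29.

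Mesenchymal matrix and surface genes had the lowest median of the lists, -0.14 over 30 members. With the local background subtracted that median was -0.02 and no longer the lowest, as TGF-beta genes had -0.06. Of the 30, 3 were at least 2-fold lower and 0 higher, against 1.08% and 0.342% of all genes. The 3 were Col5a1 (274 in gene-trapped and 1086 in revertant cells, 3.06-fold lower), Col1a1, described above, and Acta2, smooth muscle actin (1195 in gene-trapped and 3603 in revertant cells, 2.47-fold lower). Col3a1 followed at -0.79, but was at -0.11 with the local background subtracted. Col5a1, Col1a1 and Acta2 stayed past 2-fold there, at -1.20, -1.26 and -1.31. The mesenchymal genes Fn1, Mmp2 and Tpm1 were higher instead, at 0.36, 0.36 and 0.70. Tpm1, Itgb1 and Cald1 were past 2-fold higher with the local background subtracted, at 1.155, 1.18 and 1.58. Before that subtraction Itgb1 was at -0.46 and Cald1 at -0.16, so the list was not one-sided in that setting.

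**Figure D4:**
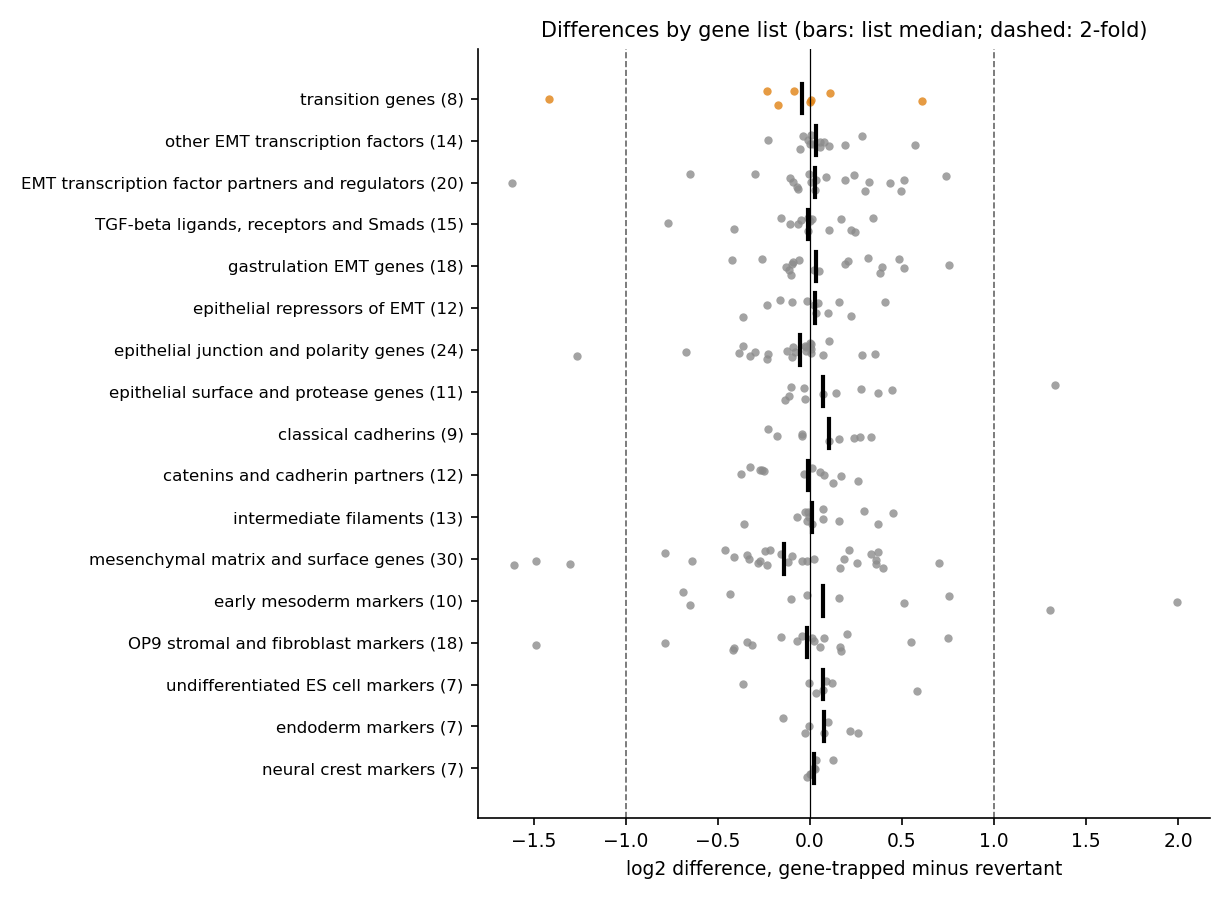
Log2 differences (gene-trapped minus revertant) of the 8 transition genes (orange, top row) and of 16 related or marker lists (grey), each point a gene above background on both arrays, with the number of genes in brackets. Black bars are list medians, which run from -0.14 for mesenchymal matrix genes to 0.11 for classical cadherins, and dashed lines mark 2-fold.

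The labelled cell type was checked against 10 early mesoderm markers, all of which were above background on both arrays. Their median was 0.07, with 5 differences above and 5 below 0. Of the 10, 2 were at least 2-fold higher and 0 lower, against 0.342% and 1.08% of all genes. Mixl1, a streak homeobox gene, had 669 in gene-trapped and 181 in revertant cells (difference 1.99) and Etv2, needed for blood and endothelium, was 2.47-fold higher, at 1739 in gene-trapped and 810 in revertant cells. Tal1 had -0.69. Endoderm, which keeps Cdh1 and Epcam, had 7 of 12 markers above background on both arrays, with a median of 0.07. Afp, Ttr, Cer1, Apoa1 and Foxa1 were not above background on both. Gata6 (difference 0.26) and Gata4 (0.21), which early mesoderm also expresses, were highest, followed by Foxa2 at 0.10. Sox17 was lowest at -0.14. Undifferentiated stem cells likewise carry Cdh1 and Epcam. Of 8 stem cell markers with a probe 7 were above background on both, with a median of 0.07, Nanog having 119 in gene-trapped and 151 in revertant cells (0.03) and Zfp42 31.4 in gene-trapped and 31.6 in revertant cells. Tbx3, which other tissues share, had 0.58, Klf4 -0.36, Zfp42 0.12 and Nr0b1 0.09. With the local background subtracted Tbx3 was at 1.15 and Klf4 at -1.57, both past 2-fold.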

How the data were processed

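Cy5-labelled amplified RNA of 2 sorted samples was hybridised to TORAY oligonucleotide arrays, per the labels' protocols. The scanner files hold spot intensity at 635 nm, the median over the spot, joined over 3 scanner gains by least squares per the file headers. The authors also deposited a table of linear intensity, which followed the scanner values on a straight line with a column median of 25; its making is not given in the sources used here.

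Intensities were corrected with normexp (offset 50) over all spots and quantile-normalized over 23472 probes, without control spots and 2 flagged probes, in limma 3.58.1 (R 4.3.3). Summaries used pandas 2.3.3 and numpy 2.4.6 under Python 3.11.15. Each gene is its brightest probe by mean signal. Genes with at least 2-fold differences are counted; with 1 array per group there is no test, and the number of arrays limits the precision. The procedure was tested on simulated data in which only bright probes were changed. Changes in dim probes and uneven local background were therefore not covered.

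Named genes are the 8 transition genes, AU019823, Kdr, the 4 measured genes of every list that differed most, and list members past 2-fold. The other members named, such as paralogs, Id genes and absent markers, were chosen after their values were seen. The genes and lists were chosen with earlier results of these data known. Of the list entries, Tcf3 was dropped because that symbol has named different genes, and where the annotation uses an older symbol, as for Zeb2 (Zfhx1b), Zeb1 (Zfhx1a) or Esrp1 (Rbm35a), the gene was matched by it. Alternatives were median and 75th percentile scaling, cyclic loess, offset 16, no background correction, subtraction of the local background, the authors' table, averaging the probes of a gene, and no filter or a 5 SD filter on dim probes.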

Additional observations from a re-analysis of the deposited data

How the results depend on the processing

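Snai1 kept a positive and Snai2, Cdh2, Tacstd1 and Vim a negative difference in all 8 alternatives run on them. Not all of these alternatives could turn a sign. Averaging the probes left every value as it was, since each gene had 1 probe. Offset 16 and no background correction keep the order of the probes on each array, so after quantile normalization signs cannot change. With offset 16, Snai1 was 0.97 and Snai2 -2.01, and 87 genes were at least 2-fold higher and 237 lower, against 47 and 149. Without background correction Snai1 was 0.93 and Snai2 -1.95, with 83 higher and 228 lower. A smaller offset widens dim genes' differences by construction. With the local background subtracted, Snai1 was 0.15, Snai2 -0.55, Twist1 -0.030, Vim -0.67 and Tacstd1 -0.064, 0 of the 8 genes were 2-fold lower, and 274 genes in all were higher. Loxl2 stayed at -1.06 and Llgl2 at -1.15 there, but Ctnna1 turned to 2.29, Pvrl3 to 0.36, Lmo4 to 0.36, Cdh3 to 0.34 and Des to 0.064. Ski turned to -0.65, Nanog to -0.45, Ctnnb1 to -0.16, Zfhx1a to -0.071, Lmnb2 to -0.064 and Ovol2 to -0.019. The authors' table gave Snai1 1.42, Snai2 -2.74, Cdh2 -0.11 and Tacstd1 -0.36, so that 1 of the 8 was at least 2-fold higher, with 285 genes higher and 571 lower over 14203 genes. Under median scaling Twist1 was -0.053, Vim -0.35 and Tacstd1 -0.28. Scaling to the 75th percentile moved the median of all genes to 0.15 and gave Zeb2 0.23, Cdh1 0.15 and Vim -0.21, and cyclic loess gave Vim -0.20. For settings other than the offset, the cause was not tested. Of 170 recomputed list medians, 150 moved by less than 0.108, the spread between control spots. That count includes the medians under averaged probes, which all stayed as they were. The medians of the 16 related or marker lists ran only from -0.14 to 0.11, so a median could turn sign within that spread. The gastrula genes did so, from 0.03 to -0.03 with the local background subtracted. Low signal over background limits Zeb2, Cdh1, Snai2 in gene-trapped cells and Snai1 in revertant cells. No paired analysis was possible because there is 1 array in each group.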

Other observations

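The scanner's local background differed beside several of the 8 spots. Beside Snai1 it was 30.3 on the gene-trapped and 17.0 on the revertant array, and beside Cdh2 256 on the gene-trapped and 590.5 on the revertant array. Beside Vim it was 2552 on the gene-trapped and 2255 on the revertant array, the reverse of the order of the spot signals. The median normalized difference of all probes in the same block was between -0.02 and 0.02 for the 8 spots. A median over a whole block cannot show an artefact at a single spot, so a part of position was not tested.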
